A study of Homo sapiens with 9 samples.

Results

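Interleukin receptors are the cell surface proteins through which white blood cells and many tissue cells read interleukins. Most are assembled from a chain that binds one ligand and a chain shared between several receptors, and those of the class I and II families pass the signal to Janus kinases (JAKs) and STAT transcription factors, whereas IL-1 and IL-17 receptors use adaptors such as MYD88 and TRAF3IP2. Lymphocytes and myeloid cells carry the widest range of these chains, and a few, such as IL10RB, are found on most cells.

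The interleukin receptor genes described here were all 42 genes, of 57338 in the deposited table, whose symbol reads IL, a number, R and any further capitals or digits. The symbol rule matched 47 genes, and 5 pseudogenes were left out. The rule also takes in secreted proteins that are not signalling chains, namely the receptor antagonists IL1RN and IL36RN and the soluble IL-22 binding protein IL22RA2. The RNA was described as that of HEK293T cells, which derive from human embryonic kidney. By that description, the cells were transfected with an EGFP plasmid alone (empty vector) or with EGFP fused to a human sperm chromatin protein, hPRM1 or hPRM2. They were sorted after 3 days for live cells with high EGFP. Each of the 3 groups had 3 libraries, and the labels do not say whether these came from separate transfections, so p-values measure only the spread between these libraries. A 3′-end kit was used, and values are RPKM, the reads of a gene scaled to its length in kilobases and to all reads on genes in the library.

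PRM1 was listed at 0 in all 9 libraries, including the 3 labelled hPRM1, and PRM2 was at 71224, 60050 and 36130 RPKM in the hPRM2 libraries and at 0 in the other 6. The first 3 are therefore called the libraries labelled hPRM1. Their summed RPKM over 10 genes typical of HEK293T cells was 1.06 to 2.17, with LIN28B, IGF2BP1, PAX2, NEFL, NEFM and SOX11 at 0. The sum was 183 to 224 for the empty vector and 204 to 312 for hPRM2. KRT8 alone was at 140, 235 and 162 RPKM in hPRM2, against 20.8, 15.8 and 27.5 in the empty vector libraries. Of the 10 genes, 5 had at least 1 RPKM in all 3 hPRM2 libraries and 8 in all 3 empty vector libraries. The library names in the sample descriptions of these 3 come from a different run of numbers than those of the remaining 6, so that numbering and the condition cannot be told apart. The estimated reads on genes were 7930000 to 10790000 for the empty vector, 4210000 to 5860000 for the libraries labelled hPRM1 and 1270000 to 2650000 for hPRM2. Replicate 1 of hPRM2 stood apart, with correlations of 0.67 and 0.70 with replicates 2 and 3 across 14901 genes on the log2 scale, against 0.86 between those.

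Of the 42 interleukin receptor genes, 33 were above 0 in at least 1 library and 9 were at 0 in all 9. The number with at least 1 RPKM was 9 to 13 per empty vector library, 20 or 21 per library labelled hPRM1 and 5 to 7 per hPRM2 library. The summed RPKM of the 42 genes was 92.8 to 99.1 in the empty vector libraries, 406 to 658 in the libraries labelled hPRM1 and 67.2 to 91.2 in hPRM2. The sum was thus higher in each library labelled hPRM1 than in any other library, while the hPRM2 libraries lay below the empty vector libraries. A fall in the RNA of a cell and a fall in the number of cells that carry a transcript cannot be told apart in such bulk values.

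**Figure D1:**
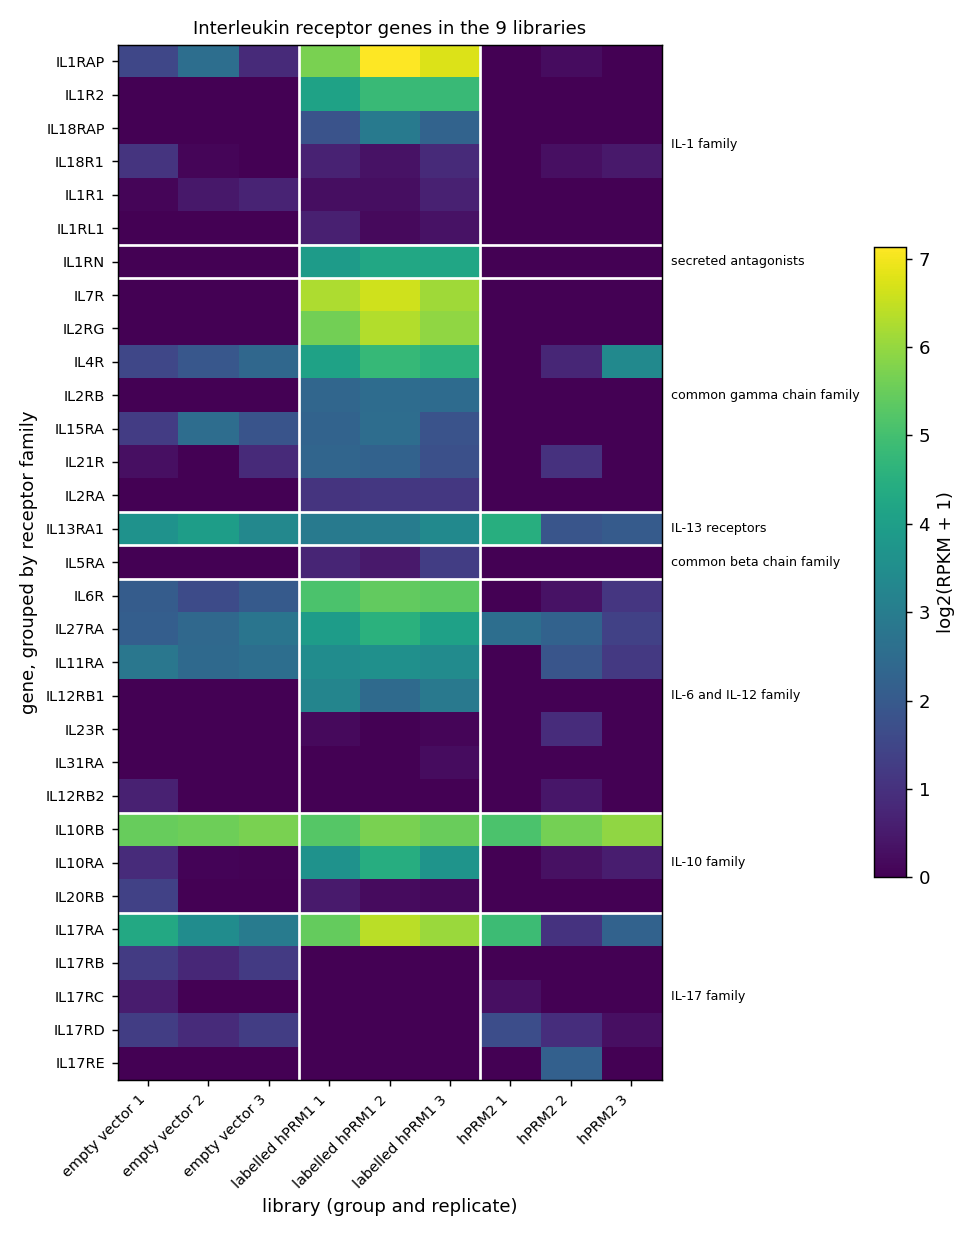
Each cell gives log2(RPKM + 1) of 1 interleukin receptor gene in 1 of the 9 libraries, with genes grouped by receptor family. The 31 genes shown were above 0 in some library and lie outside the region shared by chromosomes X and Y. The middle block, the libraries labelled hPRM1, holds most of the bright cells, and IL10RB is bright in all 9 libraries.

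Genes with a large contrast are IL7R, the alpha chain of the IL-7 receptor on T cells and their precursors, IL2RG, the common gamma chain shared by the receptors for IL-2, IL-4, IL-7, IL-9, IL-15 and IL-21, and IL1R2, a decoy receptor that binds IL-1 without signalling. Their promoters are shown because they were at 0 in 6 libraries and high in the same 3. The sequences are the 250 bases before the RefSeq start of each gene in GRCh38.p14, 5′ to 3′ on the strand of the gene. Capitals mark GGAAG, the core that ETS transcription factors bind, or CTTCC, its form on the other strand. IL7R is at chr5:35856641-35856890 on the plus strand, IL2RG at chrX:71111578-71111827 on the minus strand and IL1R2 at chr2:101998711-101998960 on the plus strand.
IL7R: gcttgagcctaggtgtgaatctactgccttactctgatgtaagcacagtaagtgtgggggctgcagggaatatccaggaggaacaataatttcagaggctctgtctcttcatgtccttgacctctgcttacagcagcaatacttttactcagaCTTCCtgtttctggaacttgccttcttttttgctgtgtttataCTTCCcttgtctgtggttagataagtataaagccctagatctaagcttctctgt
IL2RG: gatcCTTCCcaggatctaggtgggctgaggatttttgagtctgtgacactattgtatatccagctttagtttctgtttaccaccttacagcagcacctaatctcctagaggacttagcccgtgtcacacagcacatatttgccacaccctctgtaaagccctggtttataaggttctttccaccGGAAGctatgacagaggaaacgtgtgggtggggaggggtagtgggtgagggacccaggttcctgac
IL1R2: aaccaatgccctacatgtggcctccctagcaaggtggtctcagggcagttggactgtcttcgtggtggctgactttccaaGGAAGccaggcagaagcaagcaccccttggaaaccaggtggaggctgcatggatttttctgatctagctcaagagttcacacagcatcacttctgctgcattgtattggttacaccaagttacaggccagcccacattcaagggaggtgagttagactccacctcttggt
The letters GGAAG or CTTCC occurred 2 times in the IL7R window, 2 times in that of IL2RG and 1 time in that of IL1R2. Windows were found for 37 of the 42 interleukin receptor genes, and 27 of the 37 held this motif on either strand, as did 65.1% of all 35116 windows. The motif was thus common in promoters of every kind. TATAAA on either strand was in 4 of the 37 windows and in 10.7% of all windows, and CCAAT on either strand in 9 of the 37 and in 32% of all windows.

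The first comparison asks how the transcripts of cells labelled as expressing hPRM1 differ from those of the empty vector. Of the 42 genes, 20 had at least 1 RPKM in at least 3 of the 6 libraries and were tested with limma on log2(RPKM + 1), together with every other gene above that minimum. A call required an adjusted p no higher than 0.05 and a change of 2-fold or more. Of the 20, 16 were higher in the libraries labelled hPRM1 and 0 lower. Among all 13588 genes tested, 12.9% were called higher and 62.5% lower, and the median log2 fold change was -1.72. Of the 16, 11 were under 1 RPKM in all 3 empty vector libraries, passed the minimum only through the libraries labelled hPRM1 and so had to differ. The 11 were IL7R, IL2RG, IL2RB, IL2RA, IL21R, IL3RA, IL1R2, IL1RN, IL18RAP, IL12RB1 and IL10RA. IL1RAP, also called, was under 1 RPKM in 1 empty vector library. The other 8 tested genes had at least 1 RPKM in all 3 empty vector libraries. Of these 8, 4 were called higher (IL17RA, IL27RA, IL4R and IL6R) and 0 lower, with a median of 1.33, whereas of the 11304 genes in the table with such values 3.80% were called higher and 75.0% lower, with a median of -2.07. By values alone, 17 of the 20 tested genes were higher in each library labelled hPRM1 than in any empty vector library and 0 were lower in each, against 14.5% and 66.4% of the genes tested, but the 17 include the 11 that had to differ.

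The scale matters to these counts, because RPKM are shares of a library. The 7 red cell genes examined, haemoglobin genes among them, summed to 2.16 to 18.2 RPKM in the empty vector and hPRM2 libraries and to between 2.06e+06 and 2.27e+06 in the libraries labelled hPRM1. With median-of-ratios rescaling the median of all tested genes moved to -0.12 and 20 of the 20 interleukin receptor genes were called higher, with 3919 genes higher and 3925 lower in all. Markers of white blood cells moved with the receptor genes. The 9 T cell markers summed to 346 to 553 RPKM in the libraries labelled hPRM1, against 0 to 3.03 in the empty vector, where CD3D, CD3E, CD3G, CD2, CD5, CD28 and CD247 were at 0, and 33.3 to 71.0 in hPRM2, where CD3D, CD3E, CD2, CD5, CD6, CD28 and CD247 were at 0. The 8 NK and cytotoxic cell markers summed to 470 to 738 RPKM against 0 to 0.384, with NKG7, GNLY, PRF1 and GZMB among the 7 at 0 in the empty vector, and 7 B cell markers to 66.2 to 79.5 against 0.754 to 1.69, with MS4A1, CD79A and CD79B at 0. The 8 neutrophil markers summed to 954 to 1084 RPKM against 0 to 0.186, the 7 monocyte markers to 362 to 471 against 38.8 to 40.7, the 7 eosinophil and basophil markers to 32.6 to 66.1 against 0 to 1.59, and the 6 platelet markers to 336 to 595 against 16.9 to 32.1. The part of these markers in the receptor values was not tested.

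Among the receptors that use the common gamma chain, 6 of the 7 tested were called higher, where 12.9% of all genes tested were. IL7R, IL2RG, IL2RB, IL2RA and IL21R are 5 of the 6 and among the genes that had to differ, so IL4R was the 1 call of this family that the minimum had not fixed. IL7R (ENSG00000168685, chromosome 5, 35852695 to 35879603 of GRCh38) was at 75.2, 98.0 and 67.9 RPKM in the libraries labelled hPRM1 and at 0 in the other 6. The mean of 80.4 ± 15.7 RPKM (SD, n = 3) was at least 3197-fold higher than the 3 reads that a value of 0 over the empty vector group allows. Its fitted log2 difference was 6.33 (SE 0.22, limma adjusted p = 3.29e-06). IL2RG (ENSG00000147168, chromosome X, 71107404 to 71112108) was at 48.3, 79.0 and 60.75 RPKM in the same 3 libraries and at 0 elsewhere, at least 1017-fold over the empty vector limit (log2 difference 5.96, SE 0.24, limma adjusted p = 4.38e-06). Neither gene showed any overlap between the groups.

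The IL-2 receptor chains that pair with IL2RG were lower in level. IL2RB, the beta chain of the IL-2 and IL-15 receptors, was at 4.15, 4.73 and 4.61 RPKM in the libraries labelled hPRM1 and at 0 in the other 6 (log2 difference 2.46, SE 0.18, limma adjusted p = 3.06e-05). IL2RA, the high-affinity alpha chain found on activated and regulatory T cells, was at 1.11, 1.22 and 1.24 RPKM there and at 0 elsewhere (log2 difference 1.13, SE 0.13, limma adjusted p = 0.000231). In each of the 3 libraries the order by RPKM was therefore IL2RG, IL2RB and IL2RA. IL2RA rests on about 15 to 19 reads a library, estimated from its longest GENCODE 29 transcript.

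IL4R, the chain that binds IL-4 and, paired with IL13RA1, IL-13, was at 1.88, 2.81 and 4.17 RPKM in the empty vector libraries and at 16.2, 26.5 and 23.2 in those labelled hPRM1. All 3 of the latter lay above all 3 of the former, 7.44 times higher in mean (log2 difference 2.55, SE 0.31, limma adjusted p = 0.000262). IL21R, the IL-21 receptor of B, T and NK cells, was at 0.219, 0 and 0.789 RPKM against 4.01, 3.77 and 2.33, also without overlap (log2 difference 1.73, SE 0.30, limma adjusted p = 0.00158). IL15RA, which presents IL-15 to neighbouring cells, did not follow. It was at 1.41, 4.86 and 2.63 RPKM in the empty vector libraries and at 3.82, 4.91 and 2.57 in those labelled hPRM1, and these ranges overlapped (log2 difference 0.33, SE 0.38, limma adjusted p = 0.45). The eighth gene of the family, IL9R, did not reach the minimum.

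**Figure D2:**
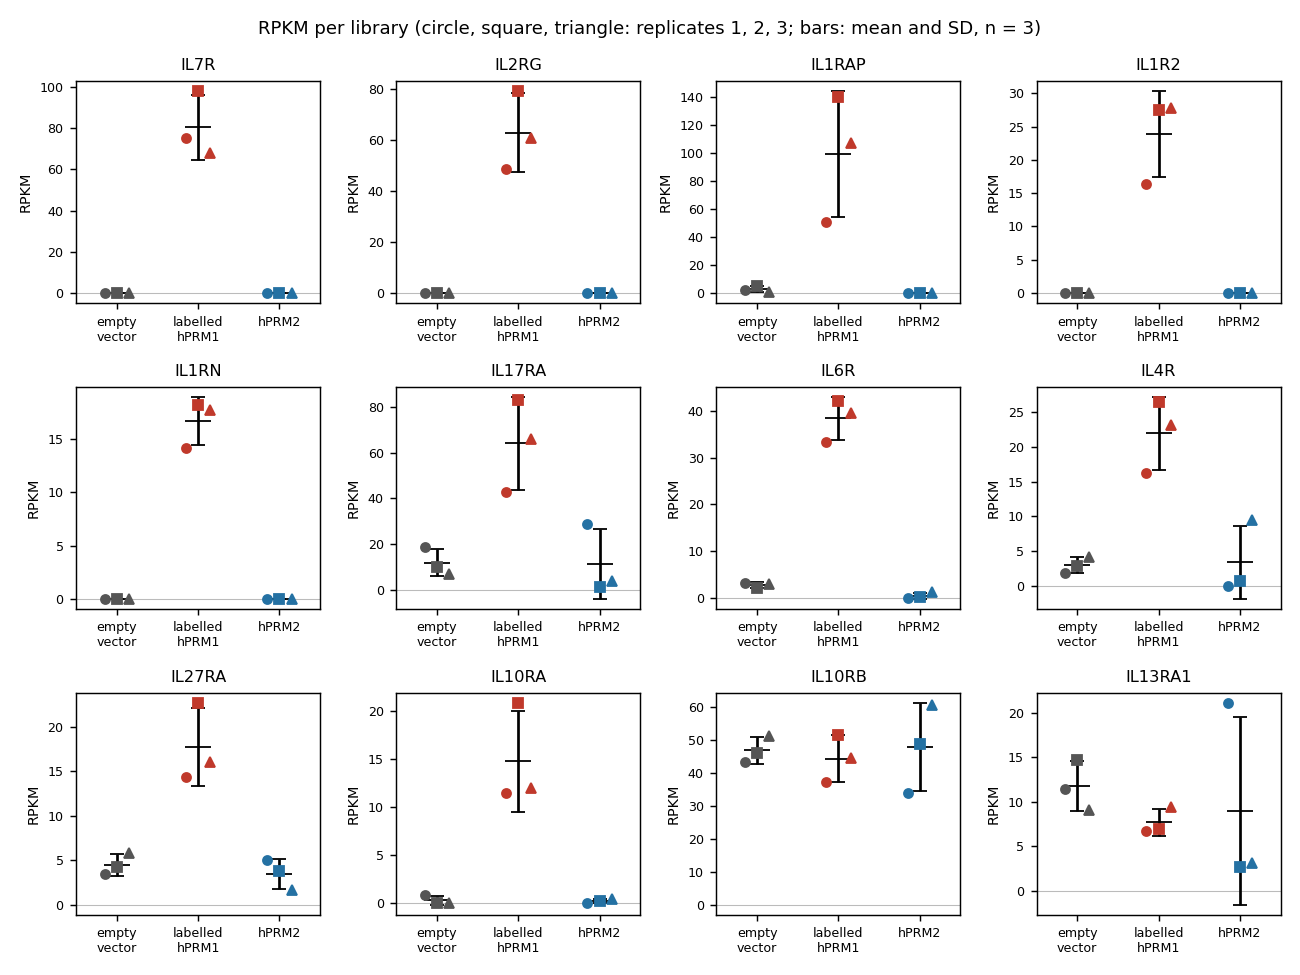
RPKM of 12 interleukin receptor genes in each library, with a linear axis of its own for each gene and the mean and SD of 3 libraries as bars. IL7R, IL2RG, IL1R2 and IL1RN are at 0 in the empty vector and hPRM2 libraries, while IL10RB lies between 33.9 and 60.6 RPKM in all 9.

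In the IL-1 family, the genes for a shared chain, a decoy and an antagonist were high and the ligand-binding signalling receptor was not. IL1RAP, the accessory chain that the receptors for IL-1, IL-33 and IL-36 share, was at 1.85, 4.94 and 0.809 RPKM in the empty vector libraries, at 50.7, 139 and 107 in the libraries labelled hPRM1 and at 0, 0.177 and 0 in hPRM2. The lowest library labelled hPRM1 was more than any other library, and the mean was 39.1 times that of the empty vector (log2 difference 4.88, SE 0.55, limma adjusted p = 0.000191). IL1R2 was at 16.4, 27.5 and 27.8 RPKM in the libraries labelled hPRM1 and at 0 in the other 6, at least 288-fold over the empty vector limit (log2 difference 4.60, SE 0.26, limma adjusted p = 1.19e-05). IL1RN, the secreted antagonist that blocks IL1R1, was at 14.1, 18.2 and 17.8 RPKM in the same 3 libraries and at 0 elsewhere, at least 254-fold (log2 difference 4.14, SE 0.21, limma adjusted p = 7.81e-06). IL1R2 and IL1RN passed the minimum only through these libraries and so had to differ.

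IL1R1, through which IL-1 signals, was at 0.0773, 0.382 and 0.647 RPKM in the empty vector libraries and at 0.209, 0.194 and 0.587 in those labelled hPRM1. These overlapped, stood on an estimated 3 to 34.2 reads a library, and lay under the minimum for a test. IL18RAP, the signalling partner of the IL-18 receptor, was among the genes that had to differ. It was at 2.57, 6.59 and 3.87 RPKM in the libraries labelled hPRM1 and at 0 in the other 6 (log2 difference 2.35, SE 0.30, limma adjusted p = 0.000371). The ligand-binding partner of IL18RAP, IL18R1, was at 0.600, 0.278 and 0.785 RPKM in the libraries labelled hPRM1. It was at 1.11, 0.0780 and 0 in the empty vector libraries and at 0, 0.230 and 0.415 in hPRM2, with no separation of the groups.

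IL1R2, IL1R1, IL1RL2, IL1RL1, IL18R1 and IL18RAP lie in a row within 461 kilobases of chromosome 2 (101991844 to 102452565). The 6 neighbours did not share a level. IL1R2 and IL18RAP, at its ends, were called higher, IL1RL2 was at 0 in all 9 libraries, and IL1R1, IL1RL1 and IL18R1 stayed at or under 1.11 RPKM in every library. IL1RL1, the IL-33 receptor of mast cells and some lymphocytes, was at 0.556, 0.131 and 0.268 RPKM in the libraries labelled hPRM1 and at 0 elsewhere, but it overlaps IL18R1 on the same strand, so their reads may have been split between them.

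**Figure D3:**
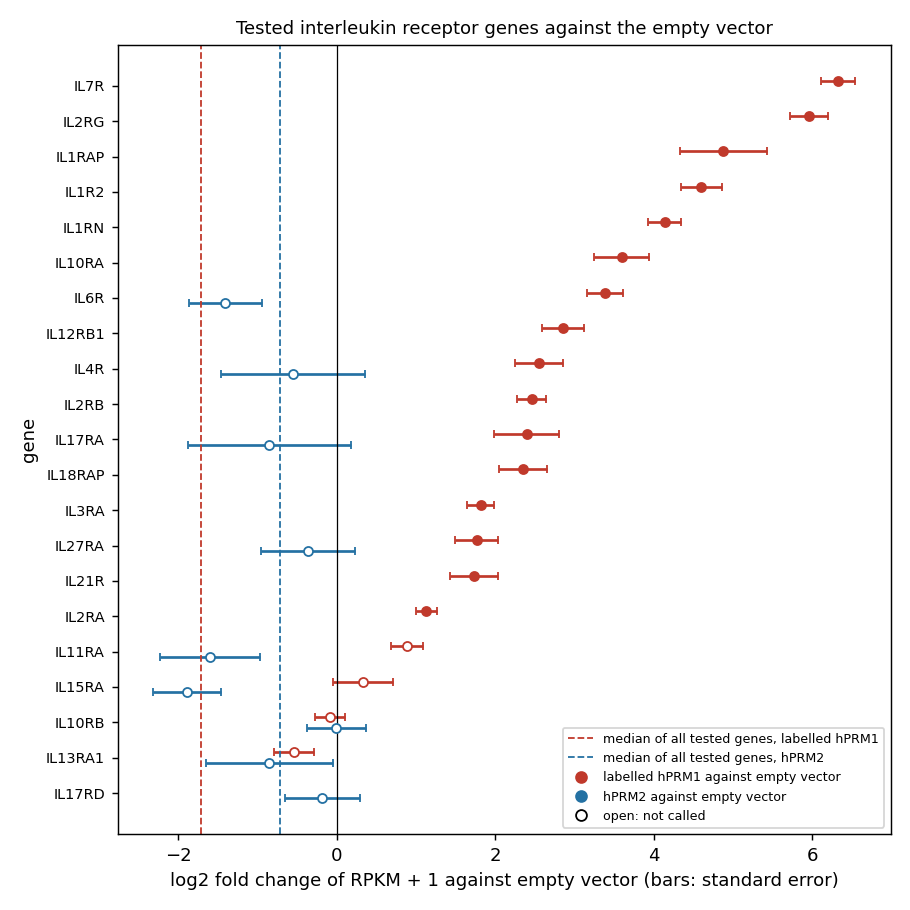
Log2 fold change of RPKM + 1 with its standard error for each tested interleukin receptor gene, against the empty vector, for the libraries labelled hPRM1 (red) and hPRM2 (blue); filled points were called. Dashed lines are the medians of all tested genes, -1.72 and -0.72. Red points for 18 of 20 genes lie above 0, and all blue points are open.

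Receptors of the IL-6 and IL-12 family gave 3 higher calls among 4 tested genes, where 12.9% of all genes tested were called higher. IL12RB1 was among the genes that had to differ, and 2 of the other 3 were called. IL6R, the IL-6 binding chain of hepatocytes and white blood cells, was at 3.25, 2.09 and 3.03 RPKM in the empty vector libraries and at 33.3, 42.2 and 39.6 in those labelled hPRM1. The groups were far apart, 13.8 times in mean (log2 difference 3.38, SE 0.22, limma adjusted p = 2.01e-05). IL6ST (gp130), the chain with which IL6R signals, was at 54.8, 21.1 and 30.1 RPKM in the empty vector libraries and at 10.3, 25.4 and 7.18 in those labelled hPRM1 and was not called. IL12RB1, the chain common to the IL-12 and IL-23 receptors, was at 8.43, 4.48 and 6.34 RPKM in the libraries labelled hPRM1 and at 0 in the other 6 (log2 difference 2.86, SE 0.26, limma adjusted p = 7.49e-05). Its partners were near 0 in the same libraries, IL12RB2 at 0 in all 3 and IL23R at 0.129, 0 and 0.0723 RPKM.

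IL27RA, the receptor through which IL-27 acts on T cells, was at 3.40, 4.27 and 5.81 RPKM in the empty vector libraries and at 14.4, 22.7 and 16.1 in those labelled hPRM1, without overlap (log2 difference 1.77, SE 0.27, limma adjusted p = 0.000876). IL11RA, the IL-11 receptor of stromal and epithelial cells, was at 6.06, 4.43 and 5.02 RPKM against 10.04, 11.0 and 9.97. It too did not overlap, but its log2 difference of 0.88 (SE 0.20, limma adjusted p = 0.00565) was under the fold needed for a call. IL11RA overlaps CCL27 on the opposite strand and GALT on its own, and the sources used here do not say whether strand was used in counting.

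In the IL-10 family the 2 chains of the IL-10 receptor differed. IL10RA, the ligand-binding chain of white blood cells, was at 0.842, 0.054 and 0.0287 RPKM in the empty vector libraries and at 11.4, 20.8 and 12.02 in those labelled hPRM1. Every library of the second group was above every library of the first (log2 difference 3.60, SE 0.35, limma adjusted p = 0.000102), but IL10RA was among the genes that had to differ. IL10RB, the widely expressed chain that IL-10, IL-22, IL-26 and the lambda interferons share, was at 43.3, 45.8 and 51.2 RPKM in the empty vector libraries, at 37.0, 51.3 and 44.3 in those labelled hPRM1 and at 33.9, 48.6 and 60.6 in hPRM2. The 3 groups overlapped throughout (log2 difference -0.09, SE 0.19, limma adjusted p = 0.69), although with median-of-ratios rescaling the difference was 2.05 and was called. IL10RB was the one interleukin receptor gene with at least 10 RPKM in all 3 empty vector libraries.

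IL17RA, the chain common to the receptors for IL-17A, IL-17F and IL-25, was at 18.7, 10.03 and 6.87 RPKM in the empty vector libraries and at 42.9, 83.5 and 66.3 in those labelled hPRM1. It was higher in each of the latter, 5.41 times in mean (log2 difference 2.40, SE 0.41, limma adjusted p = 0.00142). The other IL-17 receptor chains went unseen there. IL17RB, which binds IL-25, was at 1.36, 0.731 and 1.32 RPKM in the empty vector libraries and at 0 in the other 6. IL17RD, a partner of IL17RA that also restrains fibroblast growth factor signalling, was at 1.47, 0.828 and 1.46 RPKM in the empty vector libraries, at 0 in the 3 labelled hPRM1 and at 2.23, 0.927 and 0.220 in hPRM2. Both lay under the minimum in this comparison, and with no minimum both were called lower, as were 8555 of 22088 genes. IL17RC, the partner of IL17RA for IL-17A, was at 0.469, 0 and 0 RPKM in the empty vector libraries and at 0 in those labelled hPRM1.

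IL13RA1, which forms the type II IL-4 receptor with IL4R, was the tested gene with the lowest fold change. It was at 11.5, 14.7 and 9.11 RPKM in the empty vector libraries and at 6.71, 6.96 and 9.45 in those labelled hPRM1. Replicate 3 of the latter lay within the range of the former (log2 difference -0.54, SE 0.25, limma adjusted p = 0.087), and with median-of-ratios rescaling the sign turned (1.43, called higher). IL13RA2, the decoy for IL-13, was at 0 in all 9 libraries. Of the genes whose products pair with the common beta chain, IL3RA was called higher (log2 difference 1.82, SE 0.17, limma adjusted p = 8.68e-05), but it was among the genes that had to differ. IL5RA, the IL-5 receptor of eosinophils and basophils, was at 0.676, 0.406 and 1.45 RPKM in the libraries labelled hPRM1 and at 0 in the other 6, and was not tested. IL3RA and IL9R lie in the region shared by chromosomes X and Y and are given by group only.

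**Figure D4:**
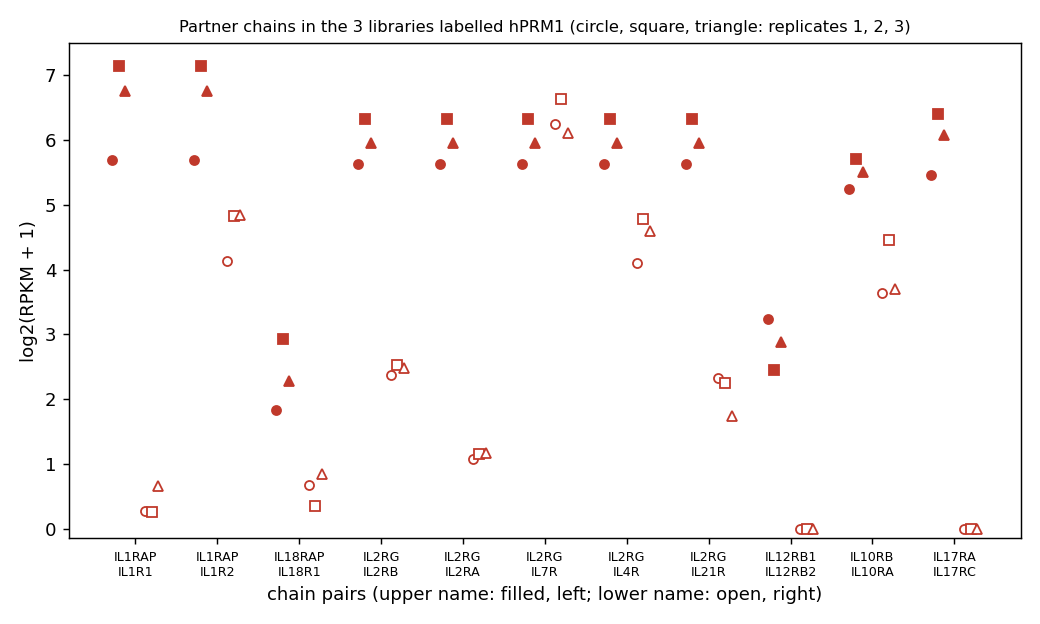
Levels of receptor chains and their partners, as log2(RPKM + 1), in the 3 libraries labelled hPRM1. IL1RAP stands above IL1R1, IL12RB1 above IL12RB2 and IL17RA above IL17RC in each library, and IL2RG and IL7R lie close together.

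RPKM divide by gene length, while a 3′-end kit gives reads from the end of each transcript whatever its length, so the order of genes depends on the scale. By mean RPKM in the libraries labelled hPRM1 the order was IL1RAP (99.0 ± 44.9), IL7R (80.4 ± 15.7), IL17RA (64.2 ± 20.4) and IL2RG (62.7 ± 15.4; SD, n = 3), and neighbours in this order did not differ beyond their spread. By reads estimated from the longest transcript, IL17RA had 2100, 2937 and 2897 reads, IL1RAP 1534, 3032 and 2885, IL7R 1928, 1806 and 1554, and IL2RG 505, 594 and 567. The long IL17RA transcript thus moved up and the short IL2RG transcript down when length was left out.

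The second comparison asks the same of hPRM2. Its libraries carry the PRM2 transcript, and 5 of the 10 HEK293T markers had at least 1 RPKM in all 3 of them. Of the 42 genes, 9 were tested against the empty vector and 0 were called in either direction by limma (3 at an unadjusted p under 0.05), where 1.36% of all 13126 genes tested were called higher and 1.37% lower. The unequal-variance test of each gene called 0 of the 9 (2 at an unadjusted p under 0.05). That test called few genes at all, 0 higher and 9 lower of 13126, so its 0 adds little. The median log2 difference of the 8 genes with at least 1 RPKM in all 3 empty vector libraries was -0.85, beside -0.86 over the 11304 genes with such values. Of the 9 tested, 3 were lower in each hPRM2 library than in any empty vector library and 0 were higher in each, against 29.9% and 6.01% of all genes tested.

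The 3 were IL15RA, IL11RA and IL6R. IL15RA was at 0 in all 3 hPRM2 libraries (log2 difference -1.89, SE 0.43, limma adjusted p = 0.066). IL11RA was at 0, 2.66 and 1.26 RPKM (log2 difference -1.60, SE 0.64, limma adjusted p = 0.18), and IL6R at 0, 0.277 and 1.21 RPKM (log2 difference -1.41, SE 0.46, limma adjusted p = 0.13). In replicate 1 all 3 genes were at 0. An IL15RA value of 0 stands on 1270000 to 2650000 reads a library, fewer than in the empty vector libraries, in which the gene had an estimated 17.9 to 66.5 reads. Fitted with all 9 libraries together, IL15RA was called lower, as were 1618 of all 13126 genes tested.

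The hPRM2 values of other members were unequal between replicates. IL17RA was at 28.7, 1.05 and 3.77 RPKM, IL13RA1 at 21.1, 2.70 and 3.12, and IL4R at 0, 0.716 and 9.42. Replicate 1 was thus the highest for the first 2 of these and the lowest for IL4R. Without replicate 1, IL13RA1 (log2 difference -1.69) and IL15RA were called lower against the empty vector, as were 1619 of all 13126 genes tested. With all 3 replicates, 180 of the 13126 were. IL27RA was at 5.004, 3.76 and 1.60 RPKM, overlapping the empty vector libraries (log2 difference -0.36, SE 0.59, limma adjusted p = 0.71). At 1.19 RPKM in mean, IL17RE came from replicate 2 alone, at 3.57 RPKM, and was not tested.

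The libraries labelled hPRM1 were also compared directly with hPRM2, which shares these libraries with the first comparison. Of 20 genes tested, 18 were called higher and 0 lower, while 16.0% of all 11756 genes tested were called higher and 37.0% lower. Of the 20, 12 were under 1 RPKM in all 3 hPRM2 libraries and had to differ, and 6 of the other 8 were called. The genes not called were IL10RB (log2 difference -0.08, SE 0.34, limma adjusted p = 0.86) and IL13RA1 (0.31, SE 0.76, limma adjusted p = 0.76). Both were called higher with median-of-ratios rescaling (1.81 and 1.95), and IL13RA1 also without replicate 1 of hPRM2 (1.14, limma adjusted p = 0.019). IL7R (6.33, SE 0.35, limma adjusted p = 9.69e-05), IL1RAP (6.45, SE 0.48, limma adjusted p = 0.0002) and IL2RG (5.96, SE 0.37, limma adjusted p = 0.000126) had the largest differences on the log2 scale. These genes were among the 12 that had to differ. The calls of IL17RA (adjusted p = 0.032 by limma) and IL4R (0.028) were each lost in 6 of 14 other limma fits, among them leaving out any one library labelled hPRM1.

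Among the ligands, 6 of 44 listed genes were tested in the libraries labelled hPRM1 against the empty vector, and 4 were called higher and 1 lower, beside 12.9% and 62.5% of all genes tested. IL32, IL1B and IL16 were under 1 RPKM in all 3 empty vector libraries and had to differ. IL32, a cytokine of T and NK cells, was at 123, 283 and 185 RPKM against 0, 0 and 0.115 (log2 difference 7.49, SE 0.33). IL1B, the main secreted ligand of IL1R1 and IL1R2, was at 10.4, 12.4 and 14.4 RPKM and IL16, a lymphocyte chemoattractant, at 10.01, 12.7 and 13.6, both at 0 in the other 6 libraries. IL23A, a subunit of IL-23, was at 1.93, 5.07 and 3.85 RPKM against 0.951, 2.06 and 0, with overlap. TSLP, an epithelial cytokine that signals through IL7R with CRLF2, was at 5.37, 6.40 and 1.16 RPKM in the empty vector libraries and at 0 in those labelled hPRM1. TSLP passed the minimum only through the empty vector libraries and so had to differ. In hPRM2, 1 ligand gene was tested and 0 were called.

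Related receptor chains outside the symbol rule were tested for 13 of 21 genes, with 3 called higher and 4 lower in the libraries labelled hPRM1 (12.9% and 62.5% of all genes tested), and 7 higher and 2 lower with median-of-ratios rescaling. CSF3R and CSF2RB were under 1 RPKM in all 3 empty vector libraries and had to differ. CSF3R, the granulocyte colony-stimulating factor receptor of neutrophils, was at 324, 351 and 340 RPKM against 0.186, 0 and 0, and CSF2RB, the common beta chain of the IL-3, IL-5 and GM-CSF receptors, at 10.9, 8.19 and 10.7 against 0 in the other 6. CSF2RA, the GM-CSF receptor alpha chain, was called higher as well (log2 difference 4.06, SE 0.57). IFNAR1, an interferon receptor chain, was called lower (log2 difference -1.79) but was at 0.18 with median-of-ratios rescaling. Against the empty vector, hPRM2 had 3 of 13 lower, where 1.37% of all genes tested were. These were IL6ST (log2 difference -4.03, SE 0.67, limma adjusted p = 0.037), EPOR (-2.26, SE 0.37, limma adjusted p = 0.037) and CNTFR (-2.02, SE 0.39, limma adjusted p = 0.048). EPOR (3.09, 4.33 and 4.03 RPKM in the empty vector libraries) and CNTFR (2.89, 2.04 and 4.58) were at 0 in hPRM2. Both passed the minimum only through the empty vector and so had to differ. The hPRM2 values of 0 stand on 1270000 to 2650000 reads a library. With median-of-ratios rescaling EPOR alone of the 3 was called (limma adjusted p = 0.047, against 0.061 for IL6ST and 0.064 for CNTFR). IL6ST was at 1.31 ± 1.38 RPKM (SD, n = 3) in hPRM2 and at 35.3 ± 17.5 in the empty vector libraries. EPOR (1.03, 1.54 and 1.33 RPKM) and CNTFR (at 0) were also among the 4 called lower in the libraries labelled hPRM1. CNTFR had to differ there too.

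**Figure D5:**
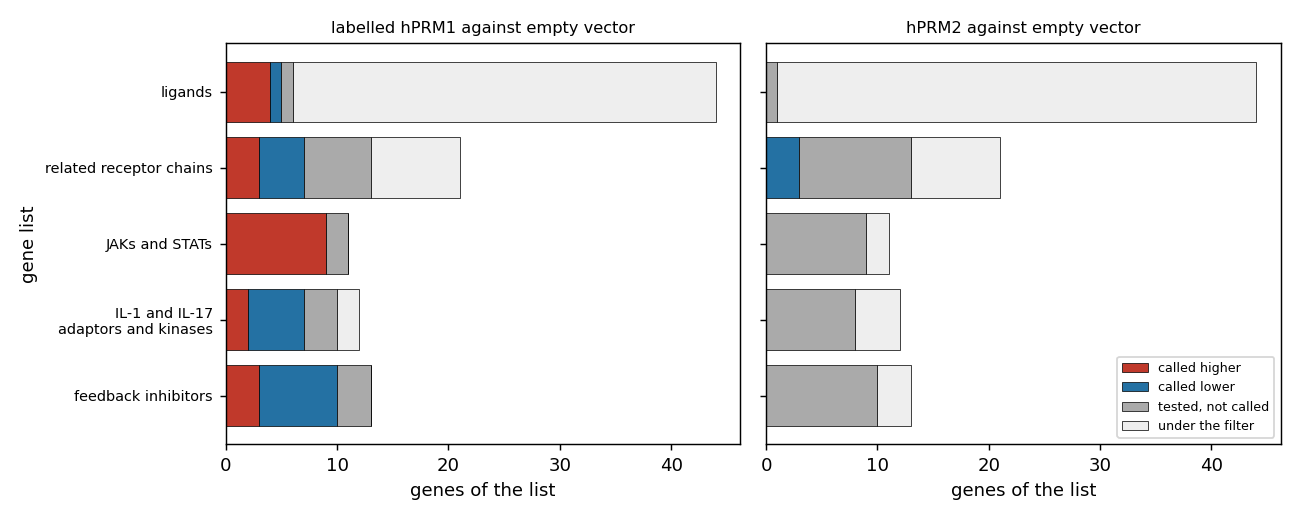
Number of genes of each pathway list that were called higher, called lower, tested without a call or under the minimum, for the libraries labelled hPRM1 (left) and hPRM2 (right) against the empty vector. JAK and STAT genes gave 9 of 11 calls higher on the left and 0 of 9 tested on the right.

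Of the 11 JAK and STAT genes, all were tested and 9 were called higher in the libraries labelled hPRM1, with 0 lower, beside 12.9% higher and 62.5% lower over all genes tested. Of the 9, 8 had at least 1 RPKM in some empty vector library. STAT6, which IL4R activates, was at 46.3, 44.0 and 47.2 RPKM against 5.03, 3.83 and 4.31 (log2 difference 3.13, SE 0.19). STAT3, the main target of IL6R and IL10RA, was at 54.7, 74.7 and 64.8 RPKM against 26.6, 22.2 and 20.5, and JAK1, which many of these receptors bind, was at 33.9, 54.7 and 39.1 against 19.2, 16.7 and 17.0. The groups did not overlap in any of these genes. JAK3, the partner kinase of IL2RG, was at 15.7, 21.5 and 15.1 RPKM against 1.33, 1.48 and 1.09. STAT5B was among the other genes called higher, and JAK2 and TYK2 were not called. In hPRM2, 0 of 9 tested were called. STAT3 was nevertheless at 35.1, 88.4 and 60.9 RPKM in hPRM2, above each empty vector library and overlapping the libraries labelled hPRM1. JAK1 went the other way, at 16.66, 4.09 and 8.94 RPKM in hPRM2, below each empty vector library.

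Adaptors and kinases of the IL-1 and IL-17 receptors gave 2 higher and 5 lower calls among 10 tested of 12, beside 12.9% and 62.5% of all genes tested. MYD88, which IL-1 receptors recruit, was at 18.2, 20.6 and 20.1 RPKM in the libraries labelled hPRM1 against 1.55, 0.862 and 0. IRAK3, an inhibitory kinase of myeloid cells, was the other called higher, but it was under 1 RPKM in all 3 empty vector libraries and had to differ. IRAK1 (log2 difference -2.85), TAB2 (-2.55), MAP3K7 (-2.29) and TAB1 (-1.72) were among those lower. After median-of-ratios rescaling the list gave 4 higher and 0 lower, so the lower calls did not outlast that scale. Feedback inhibitors gave 3 higher and 7 lower calls among 13 tested, beside 12.9% and 62.5% of all genes tested. PTPN6, the phosphatase SHP-1 of blood cells, was at 156, 197 and 205 RPKM in the libraries labelled hPRM1 against 0, 3.04 and 0. CISH and SOCS3, which STATs induce, were higher as well, but CISH was under 1 RPKM in all 3 empty vector libraries and had to differ. PIAS3 (log2 difference -2.80), SOCS4 (-3.07), PIAS4 (-1.65) and SOCS7 (-1.51) were lower, and rescaling left 2 lower and 5 higher calls in this list. SOCS4 passed the minimum only through the empty vector libraries and so had to differ. In hPRM2, 0 of 8 adaptors and 0 of 10 inhibitors tested were called.

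Low values filled the rest of the list. Above 0 in some library but under 1 RPKM in at least 7 of 9 were 12 of the 42 genes, among them IL20RB, at 1.62, 0 and 0 RPKM in the empty vector libraries, and IL31RA, seen in 1 library at 0.176 RPKM. The 9 genes at 0 throughout were IL1RL2, IL1RAPL1, IL1RAPL2, IL36RN, IL13RA2, IL20RA, IL22RA1, IL22RA2 and IL17REL. Several of these, such as IL1RAPL1 in neurons and IL22RA1 in epithelia, are known from other tissues. A 0 allows up to 3 reads of a library, which covers counting error only.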

How the data were processed

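The 9 libraries, all described as HEK293T RNA, were put into 3 groups by the genotype in the labels. The authors processed the reads with nf-core/rnaseq (FastQC, Cutadapt, STAR and Salmon, versions not given in the sources used here; hg38 per the labels), removed mitochondrial genes and deposited RPKM values, without counts, for 57338 Ensembl genes, of which 98.6% had a symbol here. No sample column was left unused.

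Each comparison was fitted separately in R 4.3.3 with limma 3.58.1 (statmod 1.5.0; lmFit, eBayes with trend and robust) on log2(RPKM + 1), a scale that understates changes of low genes. Genes that reached 1 RPKM in 3 or more of the 6 libraries were tested, with Benjamini-Hochberg adjustment over all of them, and a call required an adjusted p no higher than 0.05 and a change of 2-fold or more. Reads were estimated from the size of the 1-read step, the RPKM that 1 read gives (single-transcript genes of GENCODE 29, 600 to 20000 bases, 250 bases subtracted, tolerance 1%), so depth per library is an estimate and limits low values most in hPRM2. Coordinates are those of GENCODE 29 on GRCh38, and promoters are RefSeq's (GRCh38.p14). The annotation release used by the authors is not given in the sources used here.

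The receptor genes, pathway lists and marker lists were chosen with earlier results of these data known. All receptor genes may be named. Those called, or with at least 1 RPKM in at least 3 libraries, were given per library, apart from genes shared by X and Y. From each pathway list up to 5 called genes with the highest mean were named, and IL6ST, the remaining called genes and genes with no call were added after their values were seen. Some genes of these lists are counted but not reported here by name. Alternatives were pseudocounts of 0.1 and 5, no minimum or a minimum of 10, median-of-ratios and quantile scaling, a replicate block, 1 fit over all 9 libraries, leaving out each library, no fold threshold, and a per-gene unequal-variance test after the methods of the study. Python 3.11.15, pandas 2.3.3, numpy 2.4.6, SciPy 1.17.1 and matplotlib 3.10.9 were used for the rest.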

Additional observations from a re-analysis of the deposited data

How the results depend on the processing

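Against the empty vector, the 16 higher calls of the libraries labelled hPRM1 became 10 with a minimum of 10 RPKM, which left 11 genes to test. They became 7 with the unequal-variance test of each gene. Over all genes these settings called 867 of 6983 and 792 of 13588 higher. The 0 lower calls became 2 with no minimum (IL17RB and IL17RD), where 8555 of 22088 genes were called lower. The 18 higher calls against hPRM2 became 10 with a minimum of 10 RPKM and 0 with the unequal-variance test. Over all genes these settings called 922 of 5347 and 116 of 11756 higher. For hPRM2 against the empty vector, 1 gene was called lower in the fit of all 9 libraries (IL15RA) and 0 to 2 with each library left out (IL13RA1 and IL15RA without replicate 1). Of all 13126 genes tested, the fit of all 9 libraries called 1618 lower and that without replicate 1 of hPRM2 called 1619 lower. A pseudocount of 5 gave 11 and 12 higher calls in the comparisons of the libraries labelled hPRM1, beside 1152 of 13588 and 1304 of 11756 genes. The replicate block gave 16, 0 and 18 receptor calls, as without it, and changed none of the members' calls. Same-numbered libraries correlated by -0.081 to 0.11 in their deviations from group means, so the numbers are not read as pairs.

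With median-of-ratios and quantile scaling, the following log2 differences changed sign: IL13RA1 (1.43 and 1.08) and IL10RB (2.05 and 1.61) for the libraries labelled hPRM1 against the empty vector, IL10RB against hPRM2 (1.81 and 1.49), and, for hPRM2 against the empty vector, IL27RA (0.075 and 0.23), IL17RD (0.075 and 0.45) and IL10RB (0.55 and 0.21). The cause was not tested. With each library left out in turn, IL10RB ranged from -0.20 to 0.031 in the first comparison, from -0.30 to 0.11 against hPRM2 and from -0.20 to 0.21 for hPRM2, where IL4R ranged from -1.55 to 0.14 and IL17RD from -0.54 to 0.16. IL13RA1 against hPRM2 ranged from -0.15 to 1.14. Of 311 log2 differences tried for single genes in the first comparison, 287 kept direction and call. So did 266 of 311 against hPRM2 and 125 of 138 for hPRM2 against the empty vector. Low depth limits the hPRM2 values most.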
